A study of Mus musculus with 6 samples.

Results

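The uninjured cornea of male C57BL/6J mice was described from 3 RNA-seq libraries labelled Naive, out of 6 libraries in a study of the mouse cornea 12 months after open-field blast injury. The members were chosen by that label alone. Each library was made from pooled corneas, so the spread between libraries is a spread between pools, and that between single mice was not measured. All 3 carried the labels 12-Month and batch 4. The age of the mice and the number of corneas in a pool are not stated in the labels. Total RNA was made into strand-specific libraries and read on an Illumina NovaSeq. The 3 blast libraries were not used, so every value below is a level or a spread over 3 libraries, and there was no comparison to test.

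The cornea is the transparent front wall of the eye. Its outer face is a stratified, non-cornified epithelium renewed from stem cells at the limbus, and its bulk is a stroma of ordered collagen fibrils kept by quiescent keratocytes. A single-layered endothelium on Descemet membrane pumps fluid out of the stroma. The tissue has no blood vessels of its own, carries a dense supply of sensory axons from the trigeminal ganglion, and holds resident macrophages and dendritic cells. Rodent corneal epithelium is also known for storing very large amounts of a few metabolic enzymes, called corneal crystallins, among them the aldehyde dehydrogenase Aldh3a1 and the transketolase Tkt.

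The libraries held 41971752 to 47809779 estimated counts. Levels are given as counts-per-million values (CPM), always in the order Naive 1, Naive 2 and Naive 3. Of 22007 gene symbols, 12839 reached at least 1 CPM in all 3 libraries, 58.3% of those measured, and 5250 were at 0 in all 3. The 58.3% is the background for the number of genes detected in every list below, and a list near it is not set apart by detection. The counts were spread over many genes: 911 to 936 genes made up 50% of a library. Pearson's r of log2(CPM + 1) between libraries, across all genes, which are not independent replicates, was 0.994 to 0.996. A value of 0 allows a level of up to 0.251 to 0.286 CPM, taken as 12 counts because the values look like about 4 counts per fragment. That limit covers counting error only.

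The 6 genes used to mark the corneal layers were all detected, and the epithelial markers were far more abundant than the stromal ones. Levels of different genes are compared as CPM per kilobase (kb) of exon. Krt12, the keratin specific to corneal epithelium, lies at chr11:99415666-99422259 (GRCm38) and was the most abundant gene on this scale. It was at 9391, 10799 and 12007 CPM, a mean of 5795 ± 707 CPM per kb (SD, n = 3). Naive 1 had the lowest Krt12 value and Naive 3 the highest, 1.28 times apart.

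Aldh3a1 (chr11:61207537-61218421), which oxidises lipid aldehydes, was at 7264, 6986 and 6926 CPM, or 3635 ± 92.8 CPM per kb (SD, n = 3). Tkt (chr14:30548359-30574720), an enzyme of the pentose phosphate pathway, was at 3545, 3527 and 3051 CPM, or 459 ± 38.1 CPM per kb of all annotated exons. Both enzymes were more even between the libraries than Krt12. The ratio of Aldh3a1 to Tkt depended on the length used: it was 7.92 over all exons and 3.90 over the longest transcripts, where Tkt stood at 1047 CPM per kb.

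Lum (chr10:97565128-97572703) and Kera (chr10:97606879-97613692) encode lumican and keratocan, keratan sulfate proteoglycans that space collagen fibrils. Lum was at 18.6, 17.5 and 19.8 CPM, a level of 7.597 ± 0.472 CPM per kb (SD, n = 3). Kera was at 10.04, 13.9 and 10.9 CPM, a level of 5.08 ± 0.883 CPM per kb, and rested on 480, 597 and 456 counts. Per kb, Krt12 was 763 times as abundant as Lum and 1140 times as abundant as Kera. Col8a2 (chr4:126286793-126314330), a collagen VIII chain of Descemet membrane, was at 206, 228 and 245 CPM. At 50.4 ± 4.28 CPM per kb it was 9.91 times as abundant as Kera. In a bulk sample, fewer cells of a type and less RNA per cell cannot be told apart, and this holds for every cell type described here.

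Epithelial genes led the ranking of all genes. Of the 20 most abundant genes per kb, leaving out predicted and mitochondrially encoded ones, 12 stood in an epithelial list and 6 were keratins. The epithelial lists hold 158 of the 22007 symbols. They were chosen with earlier results of these data known, so the 12 is a description only. Together the 20 held 6.10%, 6.04% and 6.13% of the counts of the 3 libraries. Krt5, the type II keratin of basal cells, was second at 3771 ± 471 CPM per kb, with 9405, 8089 and 7363 CPM. Krt12 was lowest and Krt5 highest in Naive 1, and within libraries Krt12 was 1.18 to 1.93 times as abundant per kb as Krt5.

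Detoxifying enzymes came next. Gsto1, a glutathione transferase of the omega class, was very even, at 5376, 5446 and 5385 CPM. Its level was 2670.5 ± 18.7 CPM per kb, and with the longest transcript as length it was 4571, above Aldh3a1 on that scale at 4082 CPM per kb. Gsta4, a glutathione transferase that acts on lipid aldehydes, was at 2315, 2257 and 2313 CPM, or 1813 ± 25.8 CPM per kb. Of the 20 genes, 16 were also among the top 20 by the longest transcript.

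The next genes encode surface and structural proteins of stratified epithelia. Psca, a surface protein of the Ly6 family, was at 1630.1 ± 98.7 CPM per kb, and Calml3, a calmodulin-like protein, at 1576 ± 22.0 CPM per kb. Lypd2, another Ly6 family member, was less even than these, at 872, 1092 and 1220.2 CPM. Per kb, the protease Asprv1 was at 1425 ± 66.6, Nccrp1 at 1081 ± 22.5, the desmosomal Perp at 885 ± 118 and the raft protein Mal at 884 ± 61.6. The calcium-binding S100a11 was at 848 ± 105 and the small heat shock protein Hspb1 at 758 ± 124 CPM per kb. Perp and Hspb1 were lowest and S100a11 highest in Naive 1.

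Keratins and water channels filled the remaining places. Krt6b was at 1279.8 ± 79.9 CPM per kb and Krt6a at 1135 ± 76.8 CPM per kb. These 2 genes are near-identical, so how reads were divided between them is uncertain. Krt15, a basal and limbal keratin, was at 946 ± 61.8 CPM per kb, and Krt13, of mucosal surfaces, at 817 ± 16.3 CPM per kb. The water channel Aqp3 was at 1750.1, 1824 and 1713 CPM. Aqp5, the water channel of the corneal surface and of glands, was at 2984, 2121 and 2707 CPM, lowest in Naive 2. Per kb of all exons, the ratio of Aqp5 to Aqp3 was 0.818 to 1.20 within libraries. By the longest transcripts the ratio of their means was 1.45.

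**Figure D1:**
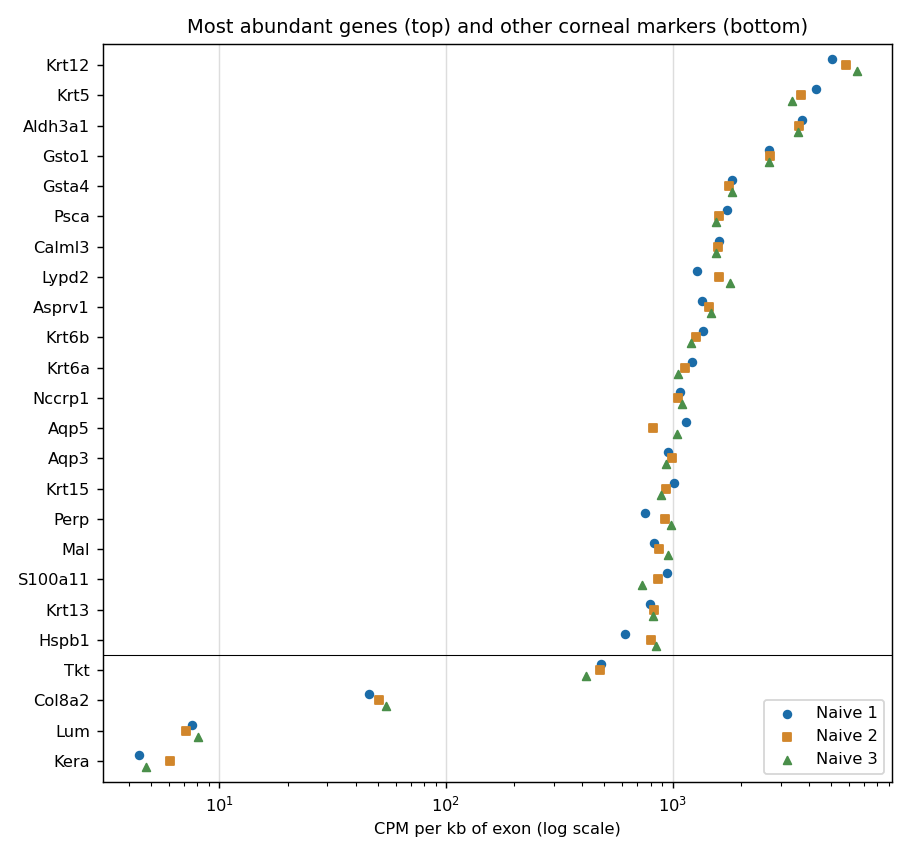
CPM per kb of exon (log scale) of the 20 most abundant genes and, under the line, of the 4 corneal markers that were not among them, with 1 point per Naive library. Krt12 leads in each library, and Kera and Lum lie lowest, at means of 5.08 and 7.597 CPM per kb.

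The 250 bases before the annotated start are shown for the 4 marker genes that had a single window in the RefSeq promoter table of build GRCm38.p6, so that their letters can be read beside their levels. Aldh3a1 and Lum are named only. The windows are chr11:99422260-99422509 on the minus strand for Krt12, and chr14:30548881-30549130, chr10:97606955-97607204 and chr4:126286544-126286793 on the plus strand for Tkt, Kera and Col8a2. The Tkt and Kera windows lie wholly inside the gene bounds given above, because the RefSeq start lies downstream of the outermost annotated one. Capitals mark matches on either strand to 4 motifs. The TATA motif was searched as TATAAA. The CCAAT box was searched by the letters of its name, and its reverse complement reads ATTGG. The GC box was searched as GGGCGG, which the other strand shows as CCGCCC. The last was the short form CACCC, shown as GGGTG on the other strand.
Krt12: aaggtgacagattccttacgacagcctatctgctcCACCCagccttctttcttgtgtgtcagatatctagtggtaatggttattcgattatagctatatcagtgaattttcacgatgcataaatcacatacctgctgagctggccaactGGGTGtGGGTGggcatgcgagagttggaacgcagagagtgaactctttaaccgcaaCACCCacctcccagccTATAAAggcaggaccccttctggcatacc
Tkt: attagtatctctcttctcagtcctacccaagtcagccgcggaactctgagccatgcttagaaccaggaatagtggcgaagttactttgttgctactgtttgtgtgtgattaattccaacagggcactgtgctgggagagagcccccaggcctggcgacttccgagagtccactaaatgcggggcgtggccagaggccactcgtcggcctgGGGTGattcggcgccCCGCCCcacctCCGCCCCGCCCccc
Kera: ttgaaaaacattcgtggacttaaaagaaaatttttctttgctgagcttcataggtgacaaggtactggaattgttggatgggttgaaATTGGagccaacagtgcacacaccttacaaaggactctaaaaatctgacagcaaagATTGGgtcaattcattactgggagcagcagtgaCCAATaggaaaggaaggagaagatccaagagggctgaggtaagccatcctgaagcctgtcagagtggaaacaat
Col8a2: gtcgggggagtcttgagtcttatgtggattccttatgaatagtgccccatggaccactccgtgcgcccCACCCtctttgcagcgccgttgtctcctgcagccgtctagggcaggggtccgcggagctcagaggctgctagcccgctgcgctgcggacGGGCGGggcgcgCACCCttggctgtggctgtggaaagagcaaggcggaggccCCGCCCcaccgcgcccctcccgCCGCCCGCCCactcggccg

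The Krt12 window held a TATAAA whose first base lay 29 bases before the start, and 4 matches to the CACCC form. The Kera window held 3 matches to the CCAAT box, the nearest 74 bases before the start, and had a GC content of 42.4%. The Tkt window held 3 GC boxes and the Col8a2 window 4, the last 2 of each overlapping, at a GC content of 59.6% and 70.0%. Neither held TATAAA. Over 13744 genes with 1 window, 12.7% of windows held TATAAA, 36.5% a CCAAT box, 43.5% a GC box and 52.6% the CACCC form.

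The letters differed by abundance class. TATAAA was in 27.1% of the 3544 windows of genes at 0 in all 3 libraries, in 5.92% of those at 1 to under 10 CPM per kb, and in 13.1% of the 206 at 100 CPM per kb or more. With its first base 20 to 40 bases before the start it was in 6.41%, 1.06% and 6.31% of these classes. The GC box was in 9.001% of windows of genes at 0 and in 63.1% of the highest class, and the median GC content of these classes was 42.8% and 60.8%. The CCAAT box hardly differed, at 37.0% and 37.4%. A match describes letters only.

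The list for differentiated corneal epithelium held a large share of the counts. It also holds the basal keratins Krt5 and Krt14, which the limbal and basal list counts again, so its share is not of differentiated cells alone. Of 35 genes listed, 34 were measured, 31 reached 1 CPM in all 3 libraries and 27 had a mean of 100 CPM or more. Their median level was 305 CPM per kb, against 5.77 over all genes averaging 1 CPM or more. The list was chosen with earlier results of these data known, so this contrast describes the list and is no independent support. The list held 6.11%, 6.12% and 6.11% of the counts, so its sum was even although Krt12 and Krt5 were not. That evenness depended on Krt12, which rose from Naive 1 to Naive 3. Without it the share fell, at 5.17%, 5.04% and 4.91%. Dsp, which links desmosomes to keratins, was at 6942, 6605 and 6296 CPM, and Upk1b, a uroplakin of the surface layer, at 832, 991 and 1020.4 CPM.

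Single members were less even than the group. In each list, the least even member is the one with the largest SD relative to its mean, among those averaging 5 CPM or more. Slurp1, a secreted Ly6 protein of the ocular surface, was at 520.4, 637 and 658 CPM. Ly6g6c, a membrane-anchored member of that family, was the least even, at 341, 100.3 and 293 CPM, with Naive 2 below both others. Sprr1b, a cornified envelope precursor, was at 0 in all 3 libraries, and Krt3 was not analysed here.

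Limbal and basal genes were nearly all detected, with 28 of 30 at 1 CPM or more in each library. Their share was 2.32%, 2.14% and 2.01%, highest in Naive 1. It includes Krt5 and Krt14, which the differentiated epithelium list also counts, and without Krt5 it was 1.38%, 1.33% and 1.27%. Col17a1, a collagen of hemidesmosomes, was at 4172, 3681 and 3404 CPM, a level of 624 ± 64.8 CPM per kb. Krt14, the basal type I keratin, was at 568, 594 and 594 CPM, and Krt5 was 11.3 times as abundant per kb. Trp63, the transcription factor of basal cells, was at 447, 373 and 342 CPM. Gpha2, a hormone subunit of limbal stem cells, was the least even member at 15.8, 22.4 and 20.5 CPM, a level of 25.4 ± 4.43 CPM per kb. The transporter Abcb5, also linked to those cells, was at 0 in all 3 libraries.

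Genes of cornified surfaces such as skin were low apart from Calml3. Of 21 listed, 11 reached 1 CPM in each library, against 58.3% of all symbols. Only 2 averaged 100 CPM or more, Calml3 and the transglutaminase Tgm1 (101, 111 and 105 CPM). Sprr1a, an envelope precursor, was at 39.5, 32.7 and 29.7 CPM, and Cnfn, cornifelin, was the least even at 16.9, 28.3 and 28.9 CPM. Krt10, a keratin of suprabasal epidermis, was at 5.81, 6.97 and 7.34 CPM. Lor, the envelope protein loricrin, was listed at 0 in 2 libraries, and Krtdap, Hrnr, Sprr2d and Sprr1b in all 3. Without Calml3 the list held 0.0225% of the counts. Of the 16 listed genes with a promoter window, 11 held TATAAA, against 12.7% of all windows. The count was picked after it was seen, as the highest share among lists with at least 10 windows, and it was 7 of 14 in the goblet and gland list, 3 of 20 in the differentiated epithelium list and 0 of 15 in the corneal endothelium list.

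Junction genes and transcription factors of the cornea were detected nearly in full. All 19 genes of the tight junction barrier reached 1 CPM in each library, with a summed share of 0.631%, 0.641% and 0.635%. Cldn4, a claudin, was the most abundant of them per kb, at 398, 478 and 517 CPM. Cdh1, E-cadherin, was at 772, 810.4 and 773 CPM, and Nectin4, an adhesion protein, at 711, 712 and 698 CPM. The least even member was another claudin, Cldn12, at 15.0, 22.1 and 19.0 CPM.

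Of 24 transcription factors, 23 reached 1 CPM in each library. Klf4, a zinc finger factor of epithelial differentiation, was the least even of those averaging 5 CPM or more, at 1754, 1271 and 1029 CPM. Elf3, an epithelial Ets factor, was at 924, 1005 and 1019 CPM, and Klf5, a relative of Klf4, at 935, 799.7 and 777 CPM. Pax6, the eye field factor, was at 664, 539 and 447 CPM. Klf4 and Pax6 were highest in Naive 1.

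All 18 corneal crystallin enzymes reached 1 CPM in each library, and 15 averaged 100 CPM or more. Their share was 1.63%, 1.602% and 1.54%, and 0.887% on average without Aldh3a1. Aldh1a1, a crystallin in the cornea of some other mammals, was at 230.2, 208 and 198 CPM. Per kb, Aldh3a1 was 84.6 times as abundant as Aldh1a1, and 45.4 times by the longest transcripts. Cryab, a small heat shock protein that the lens also makes, varied most, at 122, 94.9 and 71.5 CPM.

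The membrane mucins Muc4, Muc20 and Muc1 were abundant, and Muc16 and the goblet cell genes were not. Muc4, a membrane mucin, was at 2359, 1791 and 1562 CPM, highest in Naive 1. Muc20 was at 361, 339.5 and 294 CPM and Muc1 at 76.9, 71.1 and 67.1 CPM, both membrane mucins too. Muc5ac, the secreted mucin of goblet cells, was at 0, 0.465 and 0.381 CPM, and the secretory genes Tff3, Scgb2b24 and Bpifa1 were at 0 in all 3 libraries. Of the 19 genes of this list, 5 reached 1 CPM in each library and 6 were at 0 in all. Only 4 averaged 10 CPM or more, and Muc16, a further membrane mucin, was not among them.

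In the stroma, the main chains of collagens I, V and VI were more abundant per kb than the proteoglycans Lum and Kera. All 20 fibrillar and associated collagens reached 1 CPM in each library, with a summed share of 0.211%, 0.254% and 0.288%. Col1a1, the main chain of corneal fibrils, was at 597, 783 and 957 CPM, a level of 119 ± 27.4 CPM per kb and 23.4 times that of Kera. Col1a2, its partner chain, was at 410.1, 541 and 643 CPM. The pair kept a steady ratio of 2.74 to 2.82 per kb within libraries, although that ratio was 1.32 by the longest transcripts.

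The other genes of this list were lower, at 26.6 CPM per kb or less. Col6a1, of the beaded filaments, was at 96.3, 117 and 136 CPM, and Col5a1, which limits fibril diameter, at 122, 146 and 163 CPM. Col3a1, a fibrillar chain that is abundant in skin, was at 18.6, 29.6 and 30.3 CPM, the least even member averaging 5 CPM or more. Per kb, Col1a1 was 44.5 times as abundant as Col3a1, and 27.9 times by the longest transcripts.

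Most collagens differed between libraries in the same direction. Naive 1 had the lowest value for 17 of the 20, and for 41.7% of all genes averaging 1 CPM or more. Naive 3 had the highest value for 15 of the 20. Over all genes averaging 1 CPM or more, the highest value was in Naive 1 for 36% of genes, in Naive 2 for 25.6% and in Naive 3 for 38.4%. Col12a1, a fibril-associated chain, went the other way, at 362, 343 and 323 CPM. Naive 1 was also the library with the most counts and the highest share of limbal and basal genes, and their part in the collagen values was not tested.

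The sum of the keratocyte genes was more even than that of the collagens. Of 23 genes of keratocytes and small proteoglycans, 21 reached 1 CPM in each library, and the summed share was 0.162%, 0.164% and 0.160%. Col12a1 is the largest member of this list too, and without it the share was 0.126%, 0.129% and 0.128%, lowest in Naive 1. Dcn, decorin, was at 128, 125 and 125 CPM and per kb was 2.84 times as abundant as Lum and 4.25 times as abundant as Kera. The most abundant members per kb were the glucose transporter Slc2a1 at 48.1 ± 5.97, Aldh1a1 at 43.0 ± 3.34 and the prostaglandin D synthase Ptgds at 38.1 ± 6.46 CPM per kb. Other cell types of the eye also make these 3. Ogn, osteoglycin, was the least even at 6.21, 9.24 and 8.01 CPM, and Aspn and Omd, proteoglycan genes of the same family, stayed under 1 CPM in each library.

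**Figure D2:**
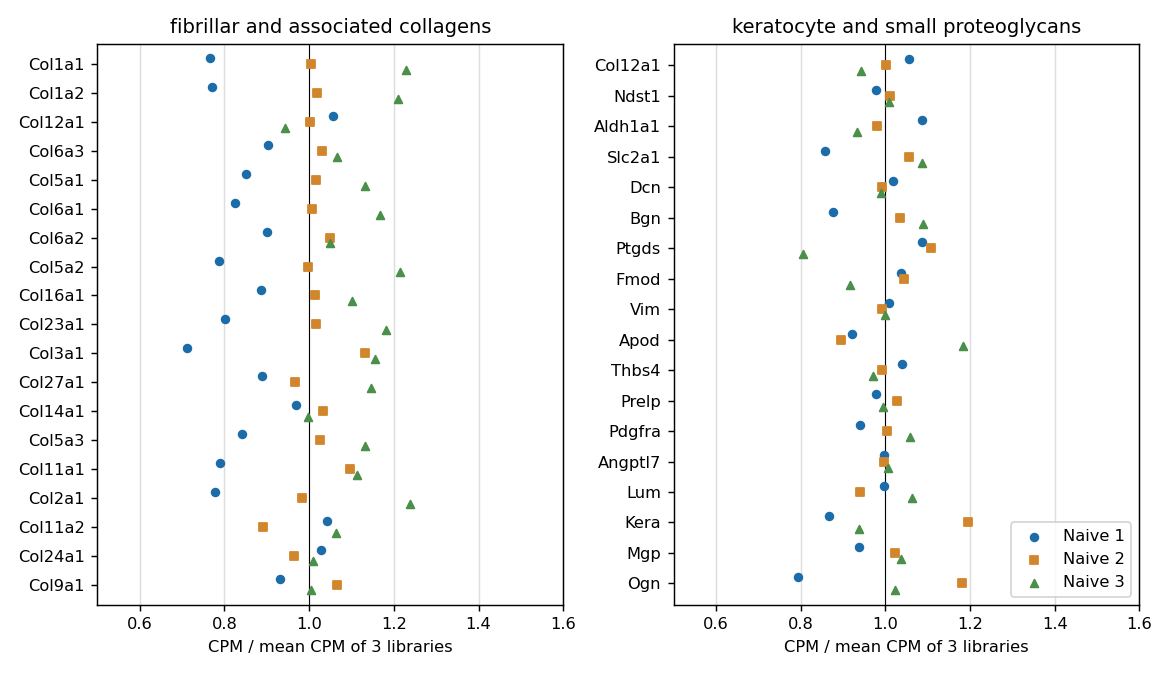
CPM of each library divided by the mean of the 3 libraries, for the 19 collagens (left) and 18 keratocyte genes (right) averaging 5 CPM or more, ordered by abundance from the top. Naive 1 is lowest for 16 of the 19 collagens drawn and for 9 of the 18 keratocyte genes.

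Genes that build and modify the matrix were widely detected. Of 13 genes of keratan sulfate synthesis, 12 reached 1 CPM in each library. B4galt1, a galactosyltransferase, was at 205, 219.7 and 222 CPM, and Papss1, which makes the sulfate donor, at 191, 203 and 195 CPM. The second enzyme of that kind, Papss2, was at 93.9, 99.4 and 102 CPM. Chst5, a sulfotransferase of the pathway, was at 16.8, 19.2 and 21.4 CPM, and B3gnt7, which extends the chain, was the least even at 12.0, 15.0 and 17.4 CPM.

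All 29 genes of the basement membrane and hemidesmosome reached 1 CPM in each library. Of them, 18 were highest in Naive 3, against 38.4% of all genes averaging 1 CPM or more. Their share was 1.38%, 1.41% and 1.39%, with Col17a1 the largest. Plec, the linker plectin, was at 2935, 3346 and 3348 CPM, and Itgb4, the hemidesmosomal integrin, at 985, 1009 and 936 CPM. Col4a3, a chain of mature basement membranes, was the least even at 65.0, 79.7 and 98.1 CPM.

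Of 19 measured genes of collagen processing and crosslinking, 18 reached 1 CPM in each library. Tgm2, a tissue transglutaminase, was at 946, 927 and 885 CPM, and P4hb, a prolyl hydroxylase subunit, at 349.9, 385 and 396 CPM. Pcolce, an enhancer of procollagen cleavage, was the least even at 72.9, 53.9 and 70.9 CPM, lowest in Naive 2. Lox, a lysyl oxidase, was at 2.07, 2.67 and 2.001 CPM.

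Of 22 measured genes of fibroblast activation, 19 reached 1 CPM in each library. Fn1, fibronectin, was at 879.9, 814 and 760.0 CPM, and Mmp14, a membrane collagenase, at 319, 309 and 301 CPM. Timp2, an inhibitor of such proteases, was at 151, 137 and 135 CPM. Acta2, the actin of myofibroblasts and smooth muscle, was the least even at 16.8, 19.6 and 22.3 CPM. Tnc, a matrix protein of healing wounds, was at 8.39, 6.83 and 8.10 CPM, and Postn, periostin, at 9.06, 11.9 and 10.9 CPM.

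Genes of the corneal endothelium and Descemet membrane were all detected: 28 of 28 reached 1 CPM in each library. The summed share was 0.303%, 0.312% and 0.314%, with a median level of 9.08 CPM per kb. Slc4a11, a transporter in which endothelial dystrophy mutations lie, was at 93.5, 86.3 and 81.1 CPM. Prdx6, a peroxiredoxin, was at 396, 462 and 501 CPM, and Aqp1, a water channel of endothelium, keratocytes and vessels, at 176, 187 and 191 CPM. Col8a1, the partner of Col8a2, was at 69.3, 64.6 and 66.0 CPM, and Col8a2 was 5.92 times as abundant per kb. Zfp385a was the least even member at 39.3, 25.3 and 27.3 CPM.

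Schwann cell genes were detected, but the list was led by genes that epithelium also makes. Of 23 genes, 17 reached 1 CPM in each library. The share was 0.362%, 0.371% and 0.386% with Mal, and 0.132%, 0.128% and 0.122% without it. Erbb3, a neuregulin receptor, was at 512, 498 and 473 CPM, and Ngfr, the low-affinity neurotrophin receptor, at 161, 189.9 and 182 CPM.

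A gene more specific to Schwann cells was lower. Sox10, the glial transcription factor, was at 5.23, 4.32 and 4.69 CPM, a level of 1.56 ± 0.150 CPM per kb (SD, n = 3). It was highest in Naive 1, the library in which most collagens were lowest.

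Most genes of axons and sensory neurons were under 1 CPM in at least 1 library. Of 27 genes, 7 reached 1 CPM in each library and 7 were at 0 in all 3. The genes at 0 were the neuropeptides Calca and Calcb, the channels Trpm8 and Trpa1, the sodium channels Scn10a and Scn11a, and the receptor Mrgprd. Piezo2, a mechanosensitive channel, held most of the list at 354, 317 and 272 CPM, and without it the share was 0.00674%, 0.00719% and 0.00808%. Ntrk2, a neurotrophin receptor, was at 41.1, 46.0 and 51.3 CPM, Uchl1, a neuronal deubiquitinase, at 1.74, 2.11 and 1.79 CPM, and Nefl, a neurofilament, at 3.87, 3.46 and 4.12 CPM. The cell bodies of corneal axons lie in the trigeminal ganglion.

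Signals that act on nerves were better represented, with 19 of 22 measured genes at 1 CPM or more in each library. Sema4d, a semaphorin, was at 360.3, 365 and 352 CPM. Ntn4, a netrin, was at 135, 149 and 149 CPM, and Efnb2, an ephrin, at 261, 263 and 263 CPM. Efna1, another ephrin, was the least even at 19.5, 59.0 and 22.7 CPM, with Naive 2 above both others. The neuropeptide Vip was at 0 in all 3 libraries.

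Macrophage genes were low but mostly detected. Of 25, 20 reached 1 CPM in each library, with a summed share of 0.0437%, 0.0456% and 0.0455%. Itgam, a myeloid integrin, was at 171, 163 and 148 CPM, Lgmn, a lysosomal protease, at 102, 128 and 135 CPM, and Lyz2, lysozyme, at 50.8, 56.2 and 57.5 CPM. More restricted genes were lower, at under 5 CPM per kb. Csf1r, the receptor of a macrophage growth factor, was at 7.47, 8.48 and 6.86 CPM, C1qa, of complement, at 4.87, 4.97 and 5.22 CPM, and Adgre1, the F4/80 antigen, at 1.76, 2.79 and 2.53 CPM. Cd68, a lysosomal glycoprotein, was the least even at 20.1, 12.7 and 12.1 CPM, and Ccr2, a receptor of recruited monocytes, stayed under 1 CPM in each library.

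Class I antigen presentation genes were higher per kb than the class II genes named here, at 60.4 CPM per kb or more against 18.2 or less. Of the 22 genes of antigen presentation and dendritic cells, 14 reached 1 CPM in each library, against 58.3% of all symbols. H2-D1, a class I heavy chain with near-identical relatives, was at 349, 351 and 350.3 CPM, among the 5 most even genes averaging 50 CPM or more. Tapbp, which loads class I molecules, was at 303, 356 and 374 CPM, and B2m, the class I light chain, at 50.4, 53.1 and 52.3 CPM. Cd74, the class II invariant chain, was the least even at 23.6, 31.5 and 36.8 CPM, and H2-Ab1, a class II chain, was at 5.81, 7.01 and 6.53 CPM. Cd207, of Langerhans cells, was at 0.0837, 0 and 0.0953 CPM, and Xcr1 and Clec9a, of conventional dendritic cells, were at 0 in all 3.

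Genes restricted to lymphocytes were mostly under 1 CPM. Of 23 measured T and NK cell genes, 4 reached 1 CPM in each library. Among them, Thy1, a surface protein that other cells also make, was at 5.12, 3.18 and 3.26 CPM, and Cd2, an adhesion receptor of lymphocytes, at 1.15, 1.28 and 1.76 CPM. Cd3e, of the T cell receptor complex, was at 0.607, 0.743 and 0.596 CPM, and the NK genes Ncr1 and Klrb1c were at 0 in all 3. Of 11 measured B and plasma cell genes, 2 reached 1 CPM in each library: Sdc1, a syndecan of epithelia at 1518, 1297 and 1294 CPM, and Xbp1, of secretory stress, at 93.6, 117 and 129 CPM. The T cell receptor and antibody constant genes listed were not analysed here.

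Of the 18 neutrophil and mast cell genes, Kit alone reached 1 CPM in each library, at 341, 350.3 and 326 CPM. Kit is also a receptor of melanocytes. Without it the list held 0.000136% of the counts, and the neutrophil genes S100a8, Mpo, Elane, Ngp, Camp and Cxcr2 and the mast cell genes Fcer1a and Ms4a2 were at 0 in all 3 libraries.

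Complement and interferon genes were mostly detected. Of 17 complement genes and regulators, 12 reached 1 CPM in each library, against 58.3% of all symbols. Clu, clusterin, was at 311, 321 and 299 CPM, C4b at 40.8, 41.5 and 40.003 CPM, and Serping1, the inhibitor of the first component, at 31.2, 31.9 and 32.5 CPM. Cd59a, which blocks the terminal complex, was the least even at 9.12, 6.83 and 8.82 CPM. Of 24 interferon response genes, 23 reached 1 CPM in each library. Ifitm1, a membrane restriction factor, was at 203, 229 and 229 CPM, while its relatives Ifitm2 and Ifitm3 were at 34.9, 39.5 and 38.0 CPM and 18.2, 21.8 and 20.6 CPM. Oasl2 was the least even at 141, 87.3 and 93.4 CPM, and Isg15, a ubiquitin-like modifier, was at 12.4, 14.3 and 11.4 CPM.

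Of the 23 cytokines and chemokines, 13 reached 1 CPM in each library, against 58.3% of all symbols. Mif was at 139.9, 115 and 105 CPM, Il18, a cytokine kept in epithelia, at 26.8, 32.9 and 34.0 CPM, and Il1a, an alarm cytokine, at 18.3, 17.6 and 18.7 CPM. Il1b, its inducible relative, was at 0.105, 0.279 and 0.477 CPM, and Il6 and Ccl20 were at 0 in all 3 libraries. In this list 2 genes set Naive 2 apart. Cx3cl1, fractalkine, was far lower there, at 105, 16.1 and 108 CPM, and the antagonist Il1rn was highest there, at 5.71, 18.7 and 7.62 CPM.

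Vessel genes were low. Of 18 genes of blood vessel endothelium, 16 reached 1 CPM in each library, none averaged 100 CPM, and the summed share was 0.00926%, 0.00906% and 0.00983%. Erg, an endothelial transcription factor, was at 17.6, 12.1 and 13.9 CPM, Plvap, of fenestrated endothelium, at 6.09, 7.2003 and 7.89 CPM, and Eng, a growth factor coreceptor, at 7.80, 10.99 and 8.62 CPM. Flt1, a receptor of vascular growth factors, was the least even at 9.12, 6.43 and 6.03 CPM, and Pecam1, an adhesion protein, was at 3.58, 3.48 and 3.93 CPM.

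Of 9 lymphatic genes, 6 reached 1 CPM in each library, against 58.3% of all symbols. Pdpn, which epithelium makes too, was at 103, 93.9 and 84.4 CPM, Ccl21a, a chemokine, at 1.74, 1.77 and 1.95 CPM, and Reln, reelin, at 44.3, 47.0 and 52.4 CPM. Itga9, an integrin of lymphatic valves, was the least even at 5.94, 7.73 and 6.72 CPM, and Lyve1, a hyaluronan receptor, was at 0.565, 0.0929 and 0.453 CPM. Of 13 pericyte and smooth muscle genes, 10 reached 1 CPM in each library. Notch3 held most of that list at 1077, 1190.4 and 1219 CPM, and Mylk, a myosin kinase, was at 162, 145 and 135 CPM. Cspg4, the NG2 proteoglycan, was the least even at 7.95, 8.04 and 10.2 CPM, while Rgs5, of pericytes, was at 12.0, 11.1 and 11.9 CPM and Myh11, of smooth muscle, at 25.3, 26.0 and 24.3 CPM.

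Transcripts of the lens were detected in every library. Of 24 lens genes, 16 reached 1 CPM in each, against 58.3% of all symbols. Their share of the counts was 0.0413%, 0.0410% and 0.0405%. That share counts Cryab, which is also listed among the corneal crystallin enzymes and was at 122, 94.9 and 71.5 CPM. The Cryab values fell from Naive 1 to Naive 3, while those of Cryaa rose. Cryaa, the lens chaperone, was at 114, 128 and 136 CPM, and Mip, the water channel of lens fibres, at 7.82, 7.94 and 7.6003 CPM. Lgsn, lengsin, was the least even at 4.39, 5.09 and 8.24 CPM, and the gamma crystallins Cryga, Cryge and Crygf were at 0 in all 3. Per kb, Krt12 was 95.3 times as abundant as Cryaa, and 58.1 times by the longest transcripts.

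Retinal transcripts had a share of 0.0419%, 0.0411% and 0.0413%, with 16 of 20 genes at 1 CPM or more in each library. Gnat1, the rod transducin, was at 73.0, 56.5 and 52.0 CPM. Prph2, a rim protein of rod discs, was the least even at 24.9, 31.0 and 38.9 CPM. Opn1sw, a cone pigment, was at 0.648, 1.16 and 0.762 CPM. Rpe65, of the pigment epithelium, was at 1.44, 1.65 and 1.95 CPM.

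Pigment cell and muscle genes were detected as well. Of 16 pigment cell and iris genes, 14 reached 1 CPM in each library, with Gpnmb, a melanosome protein also made by macrophages, at 120.1, 108 and 102 CPM and Dct, of melanin synthesis, at 91.3, 94.5 and 92.0 CPM. Tyr, tyrosinase, was the least even at 7.91, 6.41 and 5.15 CPM. All 22 skeletal muscle genes reached 1 CPM in each library, with a share of 0.0913%, 0.0917% and 0.0969%. Ttn, titin, was at 383, 393 and 423 CPM, and Atp2a1, the calcium pump of fast fibres, at 114, 115 and 126 CPM. Pvalb, parvalbumin, was the least even at 4.56, 3.58 and 7.67 CPM. Of 15 genes of the ciliary body and trabecular meshwork, 11 reached 1 CPM in each library, against 58.3% of all symbols. Myoc, myocilin, was at 42.8, 46.3 and 39.7 CPM and Wfdc2 at 34.8, 45.2 and 44.8 CPM. The least even member was Chil1 at 17.9, 18.8 and 12.8 CPM.

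Gland, fat, blood and liver genes were lower, apart from Aqp5. Of 16 lacrimal and Harderian gland genes, 5 reached 1 CPM in each library and 8 were at 0 in all 3. Aqp5 held most of that list, and without it the share was 0.00479%, 0.00539% and 0.00548%. Ltf, lactoferrin, was at 22.4, 26.7 and 27.5 CPM. In the adipocyte list Lipe, a lipase, was at 41.7, 41.4 and 39.8 CPM and Lpl, another, at 4.98, 3.79 and 4.67 CPM, while Ucp1 and Retn were at 0 in all 3. The haemoglobin genes Hba-a1 and Hba-a2, which are near-identical and so uncertain one by one, were at 21.5, 29.9 and 29.0 CPM and 13.4, 21.2 and 23.7 CPM. Of 22 liver genes, 3 reached 1 CPM in each library, led by Trf, transferrin, at 30.2, 41.2 and 39.9 CPM and Ttr, transthyretin, at 18.7, 23.2 and 25.6 CPM, both also made in the eye. In the cardiac list Actc1, an actin, was at 5.42, 8.13 and 5.81 CPM and Myh7, a slow myosin, at 6.21, 6.48 and 5.79 CPM.

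Pancreas and testis genes were close to 0, and a few kidney and brain genes were detected. Of 13 measured genes of the exocrine pancreas, 10 were at 0 in all 3 libraries, and none reached 1 CPM in all. Of 14 germ line genes of the testis, 12 were at 0 in all 3, and none reached 1 CPM in all. In the kidney tubule list, Lrp2, an endocytic receptor, was at 5.19, 4.11 and 5.36 CPM and Aqp2, a water channel, at 3.43, 3.55 and 3.502 CPM, and 5 of 14 genes were at 0. In the brain neuron list, Slc17a7, a glutamate transporter that retinal neurons also make, was at 12.2, 13.0 and 13.6 CPM, and Grin1, a glutamate receptor, was the least even at 12.6, 11.9 and 10.1 CPM.

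**Figure D3:**
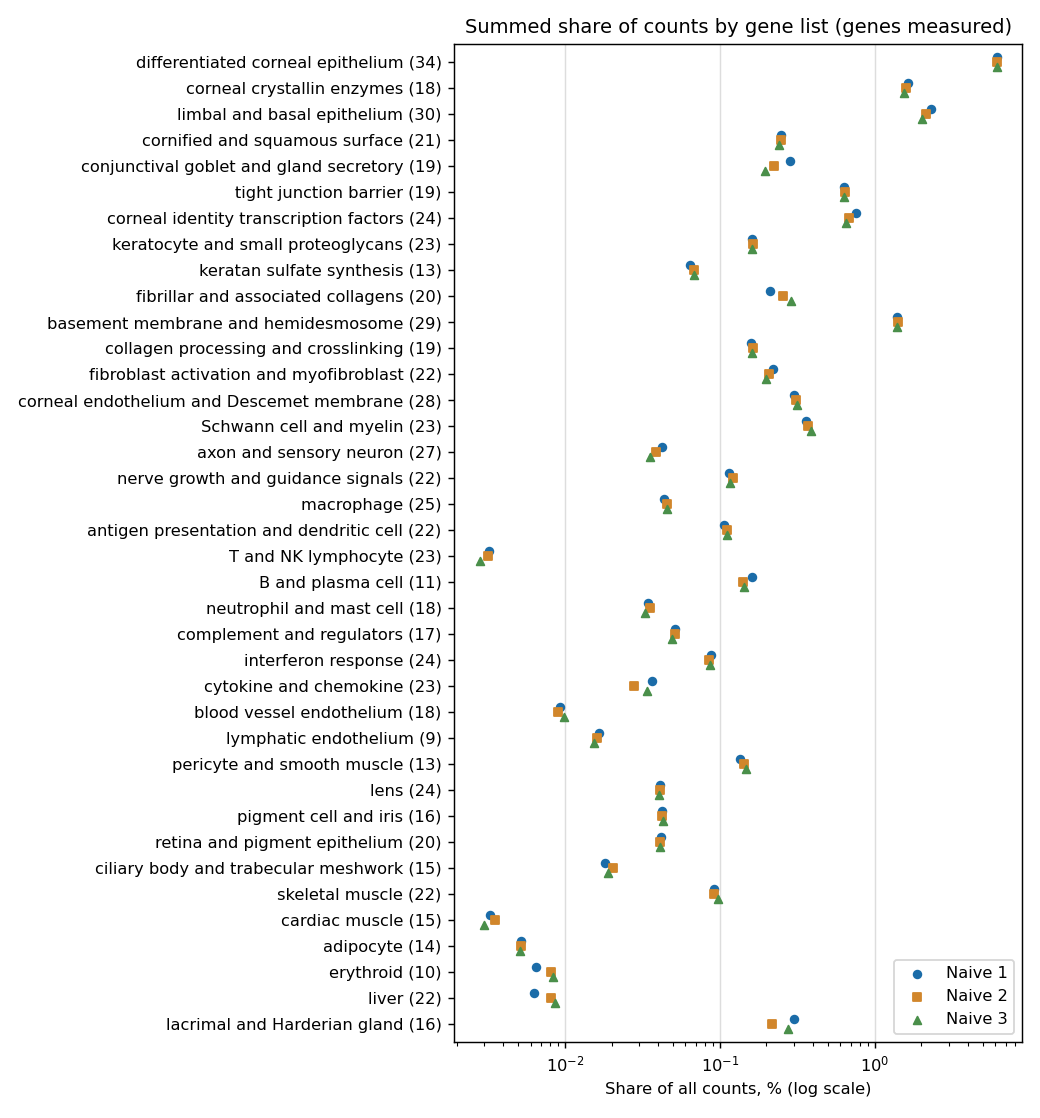
Summed share of counts (percent, log scale) of the gene lists for corneal layers, nerve, immune cells, vessels and neighbouring or other tissues, with 1 point per Naive library and the number of genes measured in brackets. Differentiated epithelium lies at 6.11% to 6.12%, and lens, retina and pigment cell lists lie between 0.0405% and 0.0430%.

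Genes that report on the state of the tissue were nearly all detected. Of 18 clock genes, 17 reached 1 CPM in each library. Nr1d1, a clock repressor, was at 488, 459 and 442 CPM, Bhlhe40, another, at 496, 513 and 513 CPM, and Dbp, an output factor, at 235, 293 and 302 CPM. Ciart, a repressor too, was the least even at 14.2, 9.62 and 11.5 CPM. Of 22 immediate early genes, which respond within minutes to stimuli, 19 reached 1 CPM in each library. Jund was at 326, 416 and 494 CPM and Junb at 353, 351 and 320.4 CPM, both AP-1 subunits, and Fos, their partner, was at 89.1, 82.8 and 82.1 CPM. Egr1 was the least even at 197, 142 and 115 CPM.

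All 14 heat shock genes reached 1 CPM in each library. Hsp90ab1, the constitutive chaperone, was at 934, 945 and 959.6 CPM, and Hspe1, of mitochondria, was the least even at 50.2, 38.7 and 34.8 CPM. The inducible Hspa1b was at 838, 931 and 872 CPM and is near-identical to Hspa1a, so its own level is uncertain. All 22 proliferation genes reached 1 CPM in each library. Mki67, a marker of cycling cells, was at 178, 165 and 146 CPM, Cdc20, of mitosis, at 39.3, 37.7 and 41.6 CPM, and Pcna, of replication, at 51.3, 51.8 and 38.9 CPM. Plk1, a mitotic kinase, was the least even at 27.3, 20.2 and 18.3 CPM.

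Of 16 genes of senescence and cell cycle inhibition, 15 reached 1 CPM in each library. Lmnb1, a lamin that is lost in senescent cells, was at 258, 251 and 248 CPM, and Cdkn1a, the inhibitor p21, at 218, 222 and 244 CPM. Cdkn2b, p15, was the least even at 53.1, 70.4 and 72.9 CPM, and Cdkn2a, which encodes p16, was at 3.66, 5.46 and 5.74 CPM.

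Of the housekeeping genes, Eef1a1 and Eef2, translation factors, were at 1614, 1790.0 and 1884 CPM and 2354, 2404 and 2248 CPM, and Actb at 1774, 1725 and 2156 CPM. Mitochondrially encoded genes held 0.457%, 0.458% and 0.416% of the counts, led by mt-Co1 at 1220.0, 1287 and 1328 CPM. mt-Cytb was at 638, 676 and 680.0 CPM and mt-Nd1 at 464, 462 and 430.0 CPM. mt-Nd4, a subunit of complex I, was at 397, 417 and 0.262 CPM and lay far below both others in Naive 3. Its overlapping neighbour mt-Nd4l was at 87.1, 86.8 and 84.6 CPM and even. Whether the Naive 3 value of mt-Nd4 is a level or a failed estimate was not tested. Without mt-Nd4 the mitochondrially encoded share was 0.418%, 0.417% and 0.416%.

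Replicate spread was smaller for more abundant genes. Over 13195 genes averaging 1 CPM or more, the median coefficient of variation (CV, the SD divided by the mean) over the 3 libraries was 10.1%. It was 6.25% without Naive 1, 10.4% without Naive 2 and 8.28% without Naive 3. Each of these rests on fewer libraries, so they compare with each other rather than with the 10.1%. The median CV was 18.6% for genes of 1 to under 5 CPM, 8.54% for 20 to under 100 CPM and 5.39% for the 76 genes of 1000 CPM or more. Counting error, at 4 counts per fragment, has an expected CV of 19.1%, 4.59% and 0.762% in these classes. The median of a CV over 3 libraries tends to lie below the expected CV, so the 2 are not on one scale. A median near the counting error therefore does not show that spread beyond counting is absent. The counting values rest on the inferred 4 counts per fragment, and the spread between pools holds more than counting error by design. The common biological CV estimated by edgeR was 15.8%.

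The most even genes averaging 50 CPM or more, predicted genes left out, had nearly the same value in each library. Arhgef17, a guanine nucleotide exchange factor, was at 466, 467 and 467 CPM, and Arhgef12, another, at 1275, 1277 and 1279.6 CPM. Cry2, a clock repressor, was at 109, 109 and 109.6 CPM, Pdp2, a phosphatase of pyruvate dehydrogenase, at 86.9, 86.8 and 87.1 CPM, and H2-D1 was the fifth. Between libraries, the median gene averaging 5 CPM or more differed by 7.91% for Naive 2 and 3, by 11.03% for Naive 1 and 2 and by 14.4% for Naive 1 and 3. Chi-square per gene, at 4 counts per fragment, averaged 7.08 for the closest pair, and no libraries were counted as 1 sample deposited more than once.

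**Figure D4:**
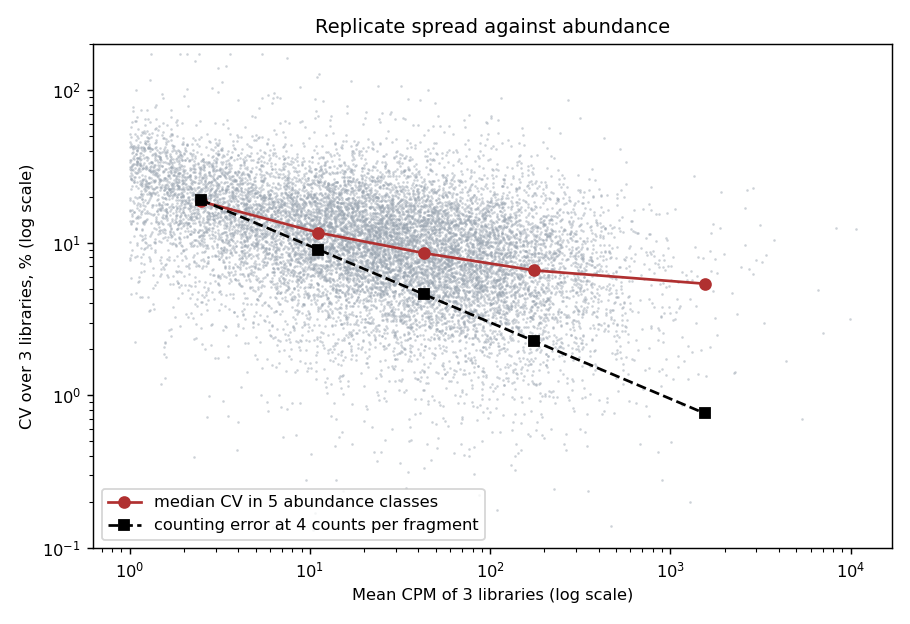
CV over the 3 Naive libraries (percent, log scale) against mean CPM (log scale) for 13195 genes, with the median in 5 abundance classes and the counting error of each class. The median lies near the counting error below 5 CPM and above it in each higher class.

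A small number of genes set 1 library apart from the others. Of 10804 genes averaging 5 CPM or more, 134 (1.24%) had a library at least 2-fold above or below both others. Naive 1 stood above for 18 genes (0.167%) and below for 37 (0.342%). Naive 2 stood above for 13 (0.12%) and below for 18 (0.167%), and Naive 3 above for 21 (0.194%) and below for 30 (0.278%). Of 519 listed genes at this level, 5 were among them: Ly6g6c, Efna1, Il1rn, Cx3cl1 and mt-Nd4. Gja1 and Apoe are named after their values were seen. Gja1, the gap junction protein connexin 43, was at 218, 178 and 554 CPM, highest in Naive 3. Apoe, a lipid carrier, was at 93.5, 249 and 248 CPM, lowest in Naive 1.

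Leaving out predicted genes (Gm, Rik and clone-style names), the 12 genes with the largest CV among those averaging 5 CPM or more each had at least 1 library apart from the others. Ccnb1ip1, of meiotic recombination, was at 16.3, 0 and 0 CPM, and Zbtb8b, a zinc finger gene, at 8.99, 53.4 and 9.43 CPM. Pygo2, a Wnt coactivator, was at 97.8, 19.2 and 18.8 CPM, and Mob1a, of the Hippo pathway, at 61.7, 231 and 50.1 CPM. Mgat1, of N-glycan synthesis, was at 14.7, 10.2 and 71.2 CPM, and Dnal1, a dynein light chain, at 13.2, 2.25 and 3.43 CPM. Ugt1a9 and Ugt1a2 share exons of a single locus, so their split is uncertain, and were at 2.51, 3.44 and 27.8 CPM and 1.004, 11.7 and 4.86 CPM. The others were Ppp1r26 at 26.1, 0.976 and 5.74 CPM, Fam109a at 3.41, 3.60 and 19.4 CPM, Gcom1 at 11.4, 8.43 and 0 CPM and Vmn1r43 at 0.0837, 7.85 and 10.7 CPM.

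Genes that overlap another gene on the same strand were a larger share of those apart: 27 of 132 with coordinates (20.5%), against 487 of 10684 (4.56%) of all genes with coordinates at that level. In some pairs, picked after their values were seen, the values were reciprocal. Gm45140 was at 21.4, 0.720 and 0.334 CPM and Rab43, which overlaps it, at 1.02, 13.7 and 20.9 CPM. Gm28043 was at 7.13, 4.27 and 39.5 CPM, with Rnf8 at 26.0, 24.6 and 11.2 CPM. The part of read assignment between overlapping genes was not tested.

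**Figure D5:**
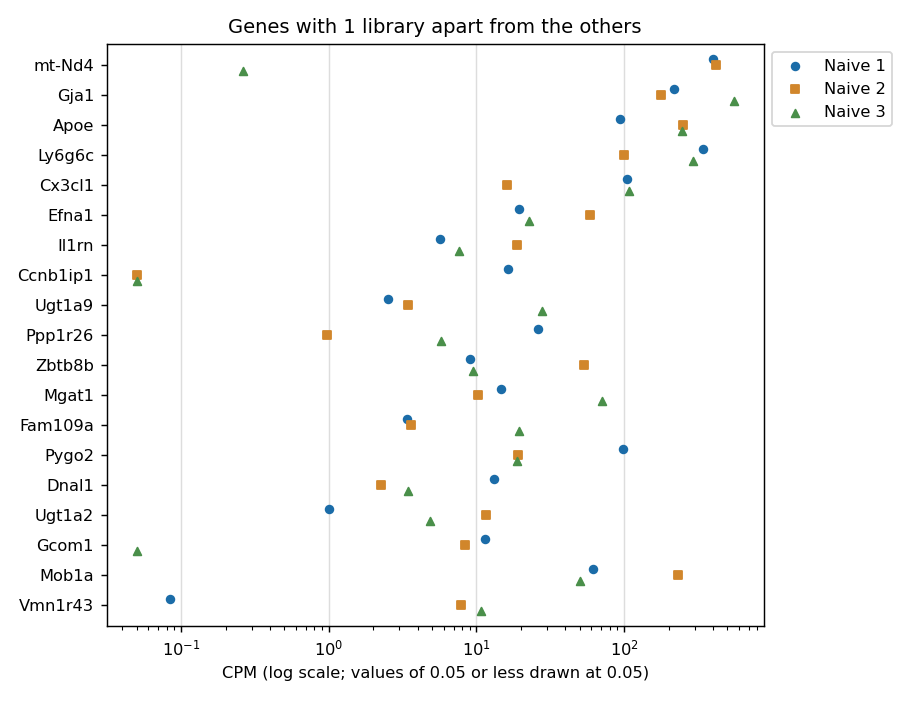
CPM (log scale) in each Naive library of 7 genes with a library apart from the others and the 12 genes with the largest CV, predicted genes left out, with values of 0.05 or less drawn at 0.05. mt-Nd4 is at 397 and 417 CPM in Naive 1 and 2 and at 0.262 CPM in Naive 3, and Cx3cl1 is low in Naive 2.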

How the data were processed

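The authors deposited 1 table per library of estimated counts per gene, as whole numbers with no scaling for library size; the unit was inferred from their range and totals. Multiples of 4 made up 48.3% to 50.5% of values from 1 to 40, so about 4 counts may stand for 1 fragment, which is an inference. The submitters' processing notes name FastQC, HISAT2, StringTie, DESeq2 and GRCm38. Which version and role each had, which gene annotation, and how strand and multi-mapped reads were handled is not given in the sources used here.

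Only the 3 Naive libraries were used. Of 22040 rows, 64 shared 31 symbols and were summed, and 26 rows named as dates were kept under neutral names (at most 0.148% of a library). CPM used total counts. Levels per kb used the union of exons of GENCODE mouse release M21 on GRCm38, which matched 21710 of 22007 symbols and 99.4% of counts. Dispersion was estimated with edgeR 4.0.16, on the counts as deposited, and the estimator was run on simulated data. The simulated counts did not carry about 4 counts per fragment, so that run cannot check the effect of this feature on the estimate. DESeq2 1.42.0 and TMM factors (0.991 to 1.01) served as alternative scalings. Promoter windows came from RefSeq, build GRCm38.p6. Tools were R 4.3.3, Python 3.11.15 and matplotlib 3.10.9.

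The members and the 49 gene lists were chosen with earlier results of these data known. Named genes were the 6 markers, the 20 most abundant per kb, in each list the 3 most abundant per kb (2 by CPM in lists of other tissues) and the least even member at 5 CPM or more, the 12 largest CV at 5 CPM or more, and the 5 smallest at 50 CPM or more. Predicted genes (Gm, Rik and clone-style names) were left out of the abundance ranking and of both CV rankings, and mitochondrially encoded ones of the abundance ranking. Others named stand for a defining gene of their list, and were chosen after their values were seen. Alternatives were thresholds, scalings, lengths, and leaving out each library. A few genes that this rule names are not reported here.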

Additional observations from a re-analysis of the deposited data

How the results depend on the processing

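Detected genes numbered 13563 with a minimum of 0.5 CPM in all libraries and 11975 with 2 CPM, against 12839 at 1 CPM, and 12939 to 12973 with a library left out. The median CV of 10.1% was 10.1% to 10.2% under TMM, DESeq2 size factors and totals without mitochondrially encoded genes or the 10 most abundant genes. It was 12.9% with no filter and 8.45% at 10 CPM, and 6.25% to 10.4% with a library left out, lowest without Naive 1. The biological CV of 15.8% was 12.7% with counts divided by 4, an alternative chosen after seeing the data, and 13.7% to 18.5% with a library left out. Leaving out the 10 most abundant genes moved the share of differentiated epithelium from 6.11% to 2.10%, since several of them are its members. It gave 0.173% for keratocyte genes, 0.330% for corneal endothelium, 0.0479% for macrophages, 0.0437% for lens, 0.0442% for retina and 0.0995% for skeletal muscle, as the total was smaller. Leaving out the most abundant member of a list, also chosen after seeing the data, gave 5.04% for differentiated epithelium, 0.128% for keratocyte genes, 0.233% for corneal endothelium, 0.0288% for macrophages, 0.0283% for lens, 0.0263% for retina and 0.0533% for skeletal muscle. Leaving mitochondrially encoded genes out of the total gave 6.14% for differentiated epithelium. Genes with a library apart numbered 517 at 1.5-fold, 77 at a mean of 20 CPM, and 135 under TMM and under DESeq2 size factors. The longest transcript as length moved 86 of 182 levels per kb by more than their SD. No paired analysis was possible because only 1 group was used. At a mean under 5 CPM, depth limits the precision of a level.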
